A study of Mus musculus with 36 samples.

Results

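The comparison described here sets the ileal mucosa of mice colonised only by Escherichia coli Nissle beside that of mice without any microbe, over a panel of 224 gene expression assays. It uses 18 of the series' 36 samples, 9 with colonisation status E. coli Nissle and 9 germfree, chosen by those labels. The remaining samples, 9 from mice with E. coli CEC and 9 from conventional mice, were used only where the Nissle samples were set against them. The labels type the Nissle and CEC groups as mono-associated, the germfree group as control and the last group as conventional (CV), and do not expand CEC. For both mono-associated groups they give a colonisation value of 21 without a unit, and for the other groups none. The sources used here give no strain, age or sex of the mice. The design text speaks of pooling RNA across mice, whereas each sample carries its own number, so it is not known whether a sample is 1 mouse. A p-value here weighs a difference against the scatter of these samples alone, and that scatter may be partly technical.

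E. coli Nissle is a nonpathogenic strain that has long been used as a probiotic. A germfree mouse is raised in a sterile isolator, and a mono-associated mouse is a germfree mouse given a single bacterium. The ileum is the last stretch of the small intestine, and its lining holds absorptive, mucus-secreting, Paneth and immune cells that face the gut bacteria and respond to their products through innate receptors, antimicrobial peptides and cytokines. A conventional mouse carries a complex microbiota instead of 1 strain. In such bulk mucosa, fewer cells of a type and less RNA per cell cannot be told apart.

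Transcripts were measured by TaqMan real-time PCR on OpenArray cards, and the values are cycle thresholds (Ct): the lower the Ct, the more template was in the well. Each sample was scaled to its own mean Ct over the 165 assays measured in all 18 samples, and the log2 relative level of an assay is that mean minus the assay's Ct. A level of -2 thus means a signal 2 cycles later than the sample's mean, and a difference of 1 between groups corresponds to a doubling if amplification was complete. The mean Ct of those 165 assays was 21.2 ± 0.176 (SD, n = 9) in Nissle and 21.3 ± 0.124 (SD, n = 9) in germfree samples, so the groups overlapped before scaling. The assays carry only catalogue IDs, and 0 of the 224 were found in the gene table used here. No gene is named for that reason, levels of different assays are not compared, and the tissue label could not be set against marker genes.

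A few assays differed between Nissle and germfree mucosa, and most of the differences were below a doubling. Of 216 assays measured in at least 5 samples of each group, 13 (6.02%) passed an adjusted p of 0.05 in limma, with 5 higher (2.31%) and 8 lower (3.7%) in Nissle samples. The 5 that rose did so by 0.56 to 2.95 log2 units, with a median of 1.09. The 8 that fell had log2 fold changes from -1.38 to -0.56, with a median of -0.66. Over all 216 assays the median log2 fold change was 0.03 and its quartiles were -0.24 and 0.28. A difference over 1 log2 unit in either direction was seen for 13 assays, of which 5 passed the test. At an unadjusted p of 0.05, 51 assays passed. The 95% confidence interval of a log2 fold change had a median half-width of 0.44, and for 153 of the 216 assays it lay wholly within 1 log2 unit of 0. Leaving out germfree replicate 10 gave 8 calls, leaving out germfree replicate 32 gave 23, and leaving out Nissle replicate 7 gave 24.

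The spread within the groups was much alike. The median SD over assays was 0.457 log2 units in Nissle and 0.412 in germfree samples, and the SD was the larger one in Nissle for 107 of the 216 assays. On the scaling of these 18 samples the groups did not overlap in 3 assays, 1 higher and 2 lower in Nissle samples. All 3 were among the calls that make up 6.02% of the assays tested.

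The largest rise was that of assay Mm00470560_m1, and it was very uneven among the colonised samples. Its Ct in germfree samples lay between 23.3 and 24.7, and its log2 relative level there ran from -3.32 through a median of -2.80 to -2.29. In Nissle samples the Ct lay between 17.7 and 24.1, and the level ran from -2.63 through a median of -0.40 to 3.71. Nissle replicates 2, 4 and 6 were highest, at 3.71, 2.41 and 2.12. Replicates 9, 5 and 1 came next, at 0.46, -0.40 and -0.76. Replicates 3, 8 and 7 were lowest, at -1.62, -1.67 and -2.63, and replicate 7 alone lay within the germfree range. All 9 Nissle samples were above the germfree mean. The group means were 0.18 ± 2.15 (SD, n = 9) and -2.77 ± 0.33 (SD, n = 9), a log2 fold change of 2.95 ± 0.67 (SE; limma, adjusted p = 0.0116) or 7.72-fold. The germfree samples thus spanned about 1 log2 unit and the colonised ones several, and the size of the rise depends on which colonised samples are looked at.

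Assay Mm01208559_m1 was more even among the colonised samples. It was measured in 8 of 9 Nissle samples, the undetermined well being that of replicate 6, and in all 9 germfree samples. Its level ran from -2.68 through a median of -1.94 to -1.36 in Nissle samples and from -5.30 through a median of -4.39 to -2.72 in germfree samples. Germfree replicates 20, 30, 32 and 33 lay at -3.44 to -2.72, and the other germfree samples at -5.30 to -4.39. The size of the rise thus depends on which germfree samples are looked at. On this scaling every colonised sample with a value was above every germfree sample, although the gap between the nearest samples was small. On the scaling of all 36 samples, used further on, the groups overlapped. There Nissle replicate 7 at -2.69 lay below germfree replicate 32 at -2.56. The means were -2.02 ± 0.51 (SD, n = 8) and -4.03 ± 0.95 (SD, n = 9), a log2 fold change of 2.01 ± 0.35 (SE; limma, adjusted p = 0.00435) or 4.02-fold. When undetermined wells were given a Ct 1 cycle later than the assay's latest measured one, the estimate was 1.51 and the adjusted p in limma 0.145, since replicate 6 then entered as the lowest Nissle sample.

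Among assays that were lower in Nissle samples, Mm01213380_s1 had the largest difference. Its level ran from -5.99 through a median of -5.25 to -4.32 in Nissle and from -5.02 through a median of -3.67 to -2.43 in germfree samples. The groups overlapped, but all 9 Nissle samples were below the germfree mean. The means were -5.12 ± 0.58 (SD, n = 9) and -3.74 ± 0.78 (SD, n = 9), a log2 fold change of -1.38 ± 0.31 (SE; limma, adjusted p = 0.0109). In the fit of all 36 samples, whose spread includes the CEC and conventional groups, the log2 fold change was -1.37 and the adjusted p 0.145 (limma), so the call was lost there.

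Assay Mm01288989_m1 came close to the limit of what was measured. It amplified in 5 of 9 Nissle samples, at Ct 30.5 to 31.4, and in 6 of 9 germfree samples, at Ct 29.3 to 30.6. Its level ran from -10.25 through a median of -9.88 to -9.43 in those 5 samples and from -9.44 through a median of -8.96 to -7.96 in those 6. The ranges met at their ends, with 1 sample of each group side by side. The log2 fold change over the measured samples was -1.13 ± 0.26 (SE; limma, adjusted p = 0.0243), from means of -9.93 ± 0.34 (SD, n = 5) and -8.80 ± 0.51 (SD, n = 6). The call did not hold when undetermined wells were filled in the same way (-0.86, limma adjusted p = 0.282), and quantile normalization turned the difference to 0.037 (limma adjusted p = 0.959).

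**Figure D1:**
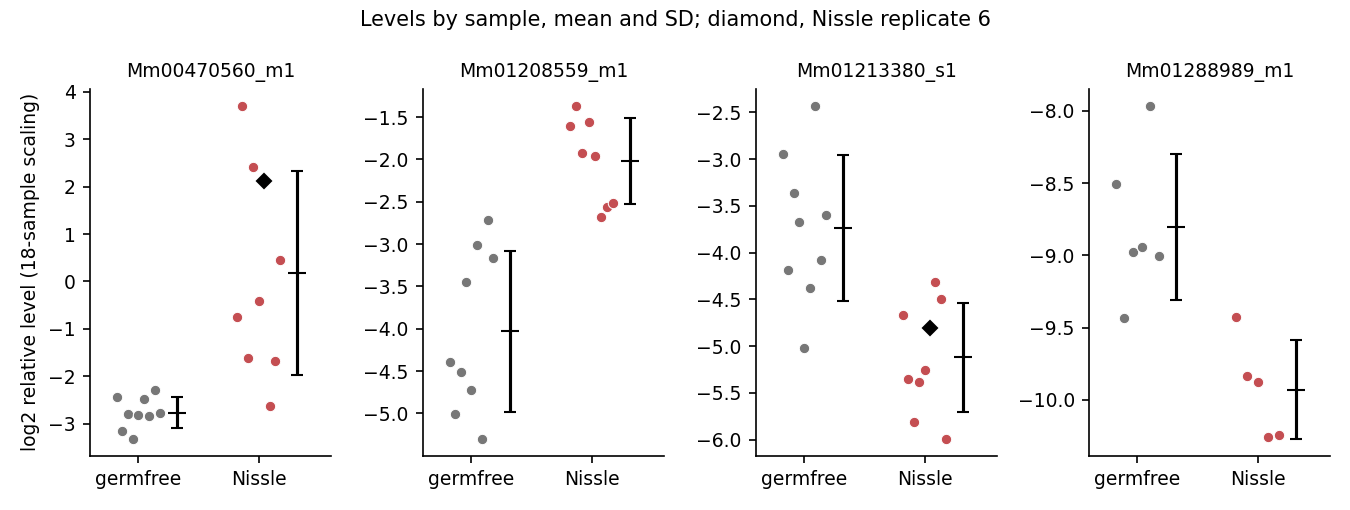
Log2 relative level (y axis, scaled to the 165 shared assays) of 4 assays in germfree (grey) and Nissle (red) samples; each point is a sample, the black diamond is Nissle replicate 6, and bars give the mean and SD. Each panel has its own scale. The Nissle points of Mm00470560_m1 spread from -2.63 to 3.71, while those of Mm01208559_m1 all lie above the germfree points.

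The changes were shared among the colonised samples to different degrees. For each Nissle sample, the called assays were counted that lay beyond the whole germfree range on the side of the group's change. This describes assays picked on the same samples and tests nothing. Replicates 2 and 4 had the most, with 12 of 13 and 11 of 12 measured assays. Replicate 5 had the fewest, with 7 of 12. Replicate 6 had 8 of 10, replicates 3 and 7 had 9 of 12 and 9 of 13, and replicates 1, 8 and 9 had 10 of 13 each.

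Nissle replicate 6 stood apart in how much of the panel it returned. It gave a Ct for 175 of the 224 assays, against 215 to 219 in the other 8 Nissle samples and 214 to 218 in germfree samples. Of its 49 undetermined wells, 47 belonged to the first 112 assays of the deposited table and 2 to the last 112. Of these 49 assays, 38 were measured in all 17 other samples. Their mean Ct in the other 8 Nissle samples lay between 16.7 and 27.8, with a median of 21.3, close to the mean of the panel. The gaps of this sample were thus not confined to late-amplifying assays. Among the CEC samples used further on, replicate 6 had 26 undetermined wells, 25 of them in the first 112 rows.

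**Figure D2:**
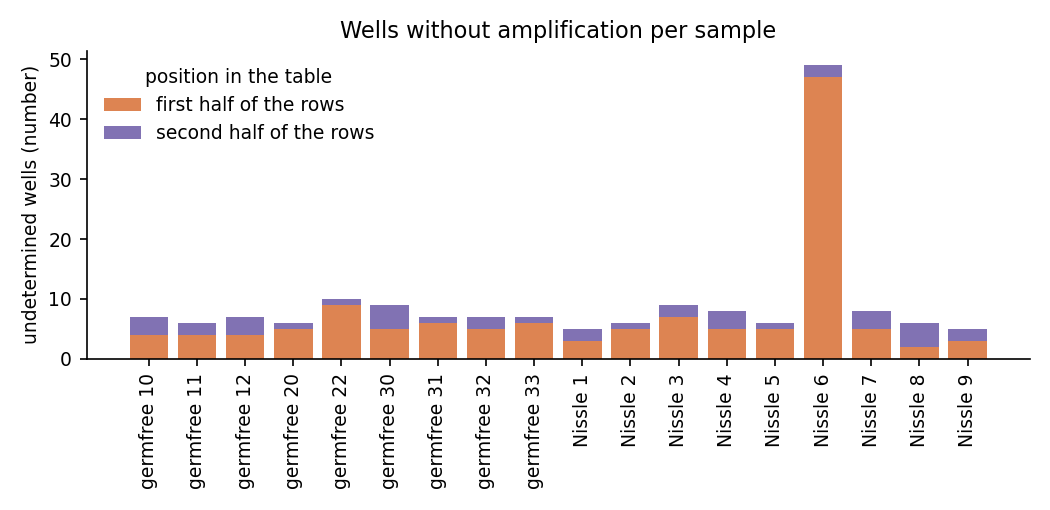
Undetermined wells per sample (y axis, number of the 224 assays), as stacked bars for the first 112 rows of the table (orange) and the last 112 (purple). Nissle replicate 6 has 49, of which 47 are in the first 112 rows.

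Without Nissle replicate 6 the samples could be scaled to 203 assays, and 16 of 216 (7.41%) were called by limma, 5 higher and 11 lower, with 62 at an unadjusted p of 0.05. Of these, 10 were called with the sample as well. The other 6 had adjusted p-values of 0.0578 to 0.251 with it (limma), and 3 assays called only with it had 0.0542 to 0.0619 without it. The direction was kept for 199 of 216 assays, the median absolute difference between both estimates was 0.0545 log2 units and the largest 0.73. The 4 assays above were called again, with log2 fold changes close to those given. Mm00470560_m1 had 2.66 (adjusted p = 0.0174, limma). Mm01208559_m1 had 1.96 (adjusted p = 0.0025, limma). Mm01213380_s1 had -1.46 (adjusted p = 0.0111, limma), and Mm01288989_m1 had -1.19 (adjusted p = 0.0202, limma). The count was lower when a further sample was removed: 8 without Nissle replicate 1 or germfree replicate 10, and 10 without Nissle replicate 4 or germfree replicate 11 or 22. It was 26 without germfree replicate 32. With the sample removed but the original 165 assays kept for scaling, 17 were called, 7 higher and 10 lower.

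**Figure D3:**
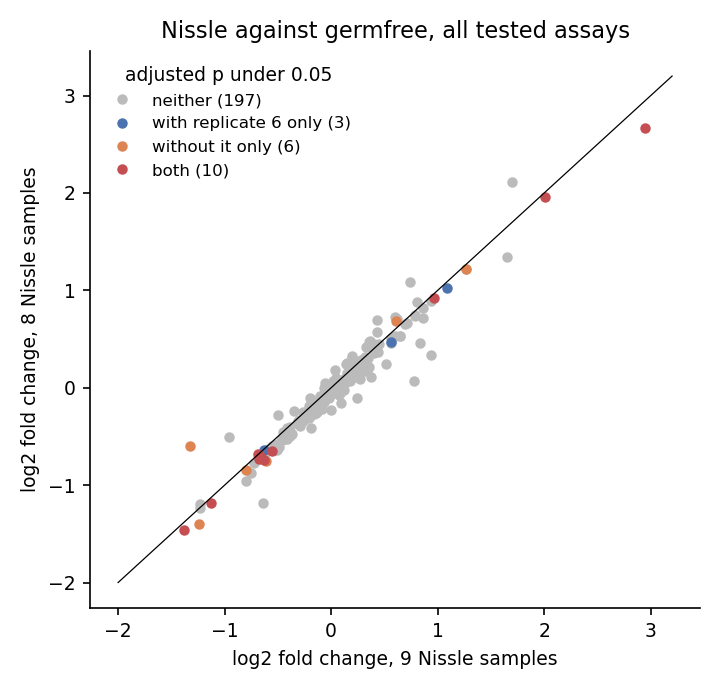
Log2 fold change of Nissle against germfree for 216 assays with all 9 Nissle samples (x axis) and without replicate 6 (y axis); each point is an assay, coloured by the fits in which it was called, and the line marks equal values. The 10 assays called in both lie near the line, and the largest shift of any assay is 0.73.

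The samples also differed in how the early and late rows of the table compared, in both groups. For each sample, the median deviation from the germfree means was taken over the first 112 rows and over the last 112. The difference between both medians ran from -0.60 through a median of -0.22 to 0.86 log2 units in germfree samples and from -0.42 through 0.081 to 0.59 in Nissle samples. It was above 0 in 4 of 9 germfree and 5 of 9 Nissle samples, so both signs occurred in each group. Whether its size was related to the groups was not tested. Whether these rows were run on separate cards is not given in the sources used here. When the early and the late rows were each scaled to their own mean, an alternative added after the offsets were seen, the median SE fell from 0.212 to 0.182. Then 29 of 216 assays (13.4%) were called by limma, 14 higher and 15 lower, and all 13 calls were among them. Without Nissle replicate 6 that scaling called 32 (14.8%), 15 higher and 17 lower, including 15 of the 16. Across these 4 fits, 9 assays were called each time, 2 higher and 7 lower. Mm00470560_m1 had a log2 fold change of 2.86, Mm01208559_m1 of 1.91, Mm01213380_s1 of -1.33 and Mm01288989_m1 of -1.28 with both sets of rows scaled separately.

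**Figure D4:**
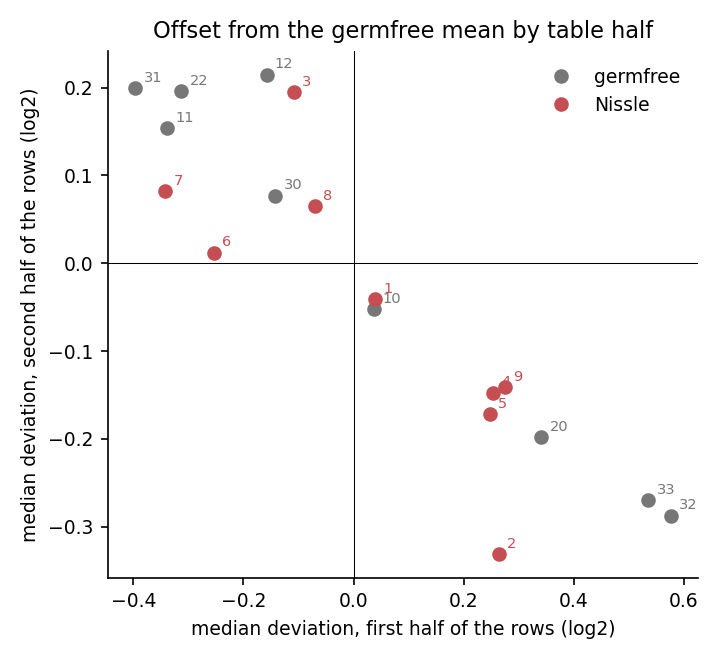
Median deviation from the germfree mean (log2 units) over the first 112 rows of the table (x axis) and the last 112 rows (y axis), 1 point per sample, labelled with its replicate number; germfree in grey, Nissle in red. Samples of both groups lie at the upper left and the lower right, so the offset does not separate the groups.

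The letter that follows the number of a TaqMan ID stands for its design. With m the probe spans an exon junction. With s both primers and probe lie in 1 exon, so genomic DNA can be detected too, and with g the assay may also detect it. Of the 171 tested m assays, 5 were called higher and 4 lower, of the 23 s assays 0 and 3, and of the 22 g assays 0 and 1, where 6.02% of all tested assays were called. The median log2 fold change was 0.06 for m, -0.15 for s and -0.05 for g assays. With both sets of rows scaled separately, m assays gave 10 higher and 9 lower, s assays 3 and 5, and g assays 1 and 1. The part of genomic DNA in these counts was not tested. Of the 8 tested assays with a mean germfree Ct over 28, 1 was called, and it was lower.

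The 8 assays measured too seldom for a test of level were compared by detection. For 2 of them no well of the 36 samples amplified. Among the others the largest gap was 6 of 9 Nissle against 3 of 9 germfree samples with a Ct, with a two-sided Fisher's exact p of 0.347, unadjusted. None of the 8 had a Fisher's exact p below 0.05, and without Nissle replicate 6 the lowest exact p was 0.153.

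Whether the response to Nissle differed from that to the other E. coli was asked by a direct contrast, from a limma fit of all 36 samples scaled to the 146 assays measured in each. Of 216 assays, 1 (0.463%) was called, and 12 passed an unadjusted p of 0.05. This was Mm01288989_m1, lower in Nissle than in CEC samples by a log2 fold change of -1.78 ± 0.31 (SE; limma, adjusted p = 0.00183). The difference rests on 5 measured samples in each group, with means of -9.86 ± 0.34 (SD, n = 5) and -8.07 ± 0.56 (SD, n = 5). Nissle levels ran from -10.20 to -9.35 and CEC levels from -8.88 to -7.38, without overlap. The call was lost with quantile normalization (-1.27, limma adjusted p = 0.696). Without CEC replicate 7 the assay had too few values to be tested, 0 assays were called by limma and 13 passed an unadjusted p of 0.05.

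Of the 13 assays that differed between Nissle and germfree samples, the other 12 were not called against CEC, with absolute differences of 0.034 to 0.644 log2 units. For 7 of these 12 the 95% confidence interval lay within 1 log2 unit of 0. The interval for Mm00470560_m1 ran from -1.29 to 1.62 and that for Mm01208559_m1 from -0.57 to 1.67, so differences of over a doubling between the strains were not resolved for either. One sample, CEC replicate 7, decided the second of these: its level of Mm01208559_m1 was -7.04, against -2.70 to -0.56 in the other 8 CEC samples. Without it the difference was -0.02 and the interval ran from -0.81 to 0.78. In that fit, chosen after seeing the data for these assays, 12 of the 13 could be tested against CEC, 0 were called by limma, where 13 of all assays passed an unadjusted p of 0.05, and 10 intervals lay within 1 log2 unit of 0. The interval of Mm00470560_m1 still ran from -1.55 to 1.43. The level of Mm00470560_m1 was as uneven in CEC samples, from -2.23 to 3.22 with an SD of 2.20 (n = 9), as in Nissle samples, from -2.65 to 3.84 with an SD of 2.19 (n = 9) in the same scaling. In conventional samples it ran only from 0.73 to 1.97.

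Against conventional mice, Nissle samples differed in 44 of 216 assays (20.4%) in the same fit, 21 higher and 23 lower in conventional samples, with 70 at an unadjusted p of 0.05 (limma). Mm00472168_m1 ran from -3.63 through a median of -2.71 to -2.14 in 8 Nissle samples and from 0.17 through 1.64 to 2.81 in conventional samples, with no overlap. Its log2 fold change was 4.31 ± 0.33 (SE; limma, adjusted p = 3.32e-12). Mm00441127_m1 ran from 4.20 to 5.95 in Nissle and from 6.66 to 8.93 in conventional samples, again with no overlap, and its log2 fold change was 2.73 ± 0.56 (SE; limma, adjusted p = 0.00065). Neither assay was called between Nissle and germfree samples in the fit of all 18 samples. The values there were -0.80 (limma, adjusted p = 0.0661) for Mm00472168_m1 and 0.45 (limma, adjusted p = 0.162) for Mm00441127_m1. Without Nissle replicate 6, Mm00472168_m1 had -0.84 and was among the assays called lower in Nissle samples.

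Mm01208559_m1, which rose with Nissle, was lower in conventional than in Nissle samples by a log2 fold change of -3.33 ± 0.55 (SE; limma, adjusted p = 2.98e-05). Its level was -6.37 to -3.61 in conventional and -2.69 to -1.23 in Nissle samples, without overlap. Mm00452283_m1 was also lower in conventional samples, by -2.12 ± 0.53 (SE; limma, adjusted p = 0.00522), and its Nissle levels from -1.56 to 2.54 overlapped the conventional ones from -2.09 to -0.18. That overlap rests on Nissle replicate 6, at -1.56. The next lowest Nissle sample, replicate 5 at -0.146, lay just above the highest conventional one at -0.180. Of the 13 assays called between Nissle and germfree samples, 4 were called here, 3 higher and 1 lower in conventional samples. Since those 13 were picked with the same Nissle samples, this share is a description.

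Each colonised group was also set beside the germfree samples in the 36-sample fit. These comparisons share their germfree samples and so are not independent, and their values are given side by side. For Mm00470560_m1 the log2 fold change was 2.96 with Nissle, 2.79 with CEC and 4.11 in conventional samples, and all 3 values were above 0. For Mm01208559_m1 it was 2.02, 1.47 and -1.31, the conventional value standing on the other side of 0. Without CEC replicate 7 the CEC value of this assay was 2.03 (limma, adjusted p = 0.000949), where it had an adjusted p of 0.0873 with that sample. For Mm01213380_s1 it was -1.37, -1.60 and -1.93, all on 1 side. For Mm01288989_m1 it was -1.10, 0.68 and 0.88, the Nissle value alone being below 0. The CEC value was not called (limma, adjusted p = 0.141). These 3 values cover only samples with a Ct, 5 Nissle, 5 CEC, 7 conventional and 6 germfree ones.

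**Figure D5:**
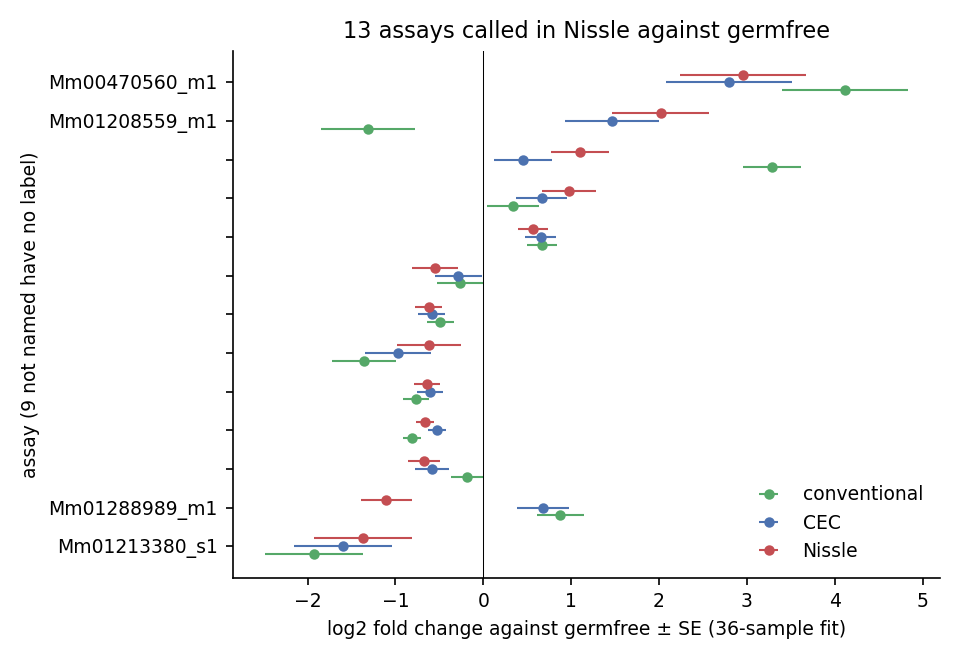
Log2 fold change against germfree (x axis) ± SE from the 36-sample fit for the 13 assays called between Nissle and germfree samples, 1 row per assay, in Nissle (red), CEC (blue) and conventional (green) samples; only the 4 assays described in the text are labelled. Conventional values lie on the opposite side of 0 for Mm01208559_m1, whose CEC value includes replicate 7, and both other groups do for Mm01288989_m1.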

How the data were processed

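The deposited table holds raw Ct values without normalization by the authors, per the file headers, which call it a truncated example; how Ct was called is not given in the sources used here. Per the labels' protocols, RNA was isolated with a mirVana kit and had high integrity. Columns were matched to samples by title. A Ct of 40 was treated as missing. Levels are minus Ct relative to the mean of the assays measured in every sample of a fit. Assays with at least 5 values in each compared group were tested with limma 3.58.1 in R 4.3.3 (lmFit, eBayes, two-sided, Benjamini-Hochberg over all assays tested). The code was tested on simulated data. The number of assays with a Ct stands in for depth. Within each of the 4 groups no 2 samples shared a Ct for an assay. Any 2 samples of a group differed with an SD of at least 0.434 log2 units over assays, so none was a copied column. Each sample was counted separately, but this check cannot tell whether samples came from separate mice. Up to 2 assays each way were named per comparison, by fold change among those called, because no gene names were matched. The members, lists and rules were chosen with earlier results of these data known; the gene and marker lists could not be used. Alternatives covered scaling, missing values, filters, fits, an exact permutation test per assay and each sample left out.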

Additional observations from a re-analysis of the deposited data

Results flagged for a closer look

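A screen of 34 groups of values for a sample far from the others found 4, each group screened at a chance rate of about 1 in 20. The 4 are not independent. Nissle replicate 6 was known for its undetermined wells before the screen, and the rest are 1 sample, CEC replicate 7. Most groups came from assays named because they were called, so the count cannot be set against that rate. Nissle replicate 6 was measured for 175 assays, far from the rest of its group. CEC replicate 7 was far below the other CEC samples, on the 36-sample scaling, at -0.83 for Mm00441127_m1, -4.25 for Mm00452283_m1 and -7.04 for Mm01208559_m1.

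Among the named assays, the direct limma contrast called a difference between colonised groups for Mm01288989_m1, at -1.78 for Nissle against CEC (adjusted p = 0.00183). It rests on 5 measured samples in each group, and the call was lost with quantile normalization (-1.27, limma adjusted p = 0.696). Of the 44 assays called for conventional against Nissle, the 5 among the named ones were Mm01208559_m1 at -3.33, Mm01288989_m1 at 1.98 (adjusted p = 2.73e-05), Mm00472168_m1 at 4.31, Mm00441127_m1 at 2.73 and Mm00452283_m1 at -2.12. The value for Mm01288989_m1 covers only samples with a Ct, 5 Nissle ones at Ct 30.5 to 31.4 and 7 conventional ones.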

How the results depend on the processing

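The count of 13 assays in Nissle against germfree samples was 6 with undetermined wells filled in, 42 (22 higher, 20 lower) with sample quality weights, 29 with the first and last 112 rows scaled separately and 35 (15 higher, 20 lower) with the table divided after row 64. Leaving out 1 sample at a time gave 8 to 24. Without Nissle replicate 6 the count of 16 became 42, 32 and 39 under the last 3, and 8 to 26 with a further sample left out. Other scalings moved the split: raw Ct gave 5 higher and 4 lower with the sample and 7 and 8 without it, and the median of the shared assays 4 and 10, and 3 and 15. The fit of all 4 groups gave 8 and 8, and 2 and 9. The exact permutation test called 16 and 13. Causes were not tested.

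Mm00470560_m1 was called under all 31 alternatives run with replicate 6 (adjusted p in limma or permutation 0.00519 to 0.0268) and all 31 without it. Mm01288989_m1 reversed under quantile normalization (0.037 with and 0.039 without replicate 6) and lost its call under 4 others in each, among them the exact permutation test (adjusted p = 0.0637 with it).

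For Nissle against CEC the single call became 0 with the replicate block (15 at an unadjusted p of 0.05 in limma; Mm01288989_m1 at -1.56, adjusted p = 0.55), 0 with quantile normalization (11) and 0 to 1 with 1 sample left out. For conventional against Nissle the replicate block gave 80 (41 higher, 39 lower), against 59 for the same samples without it, and leaving out 1 sample gave 40 to 61; the 2 groups alone gave 65. The block is a numerical check, since the levels of samples with the same number did not deviate together (correlations of -0.38 to 0.37 with CEC and -0.25 to 0.41 with conventional samples). Undetermined wells were alike for 1 number: replicate 6 had the most of its group in Nissle (49) and in CEC samples (26). No paired analysis was possible for Nissle against germfree because the groups share no numbers. Scaling to reference genes was not run, since assays were not matched to genes.

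With 9 samples a group, the intervals for Nissle against germfree had a median half-width of 0.44 log2 units, without adjustment for the number of assays. Calls used an adjusted p, so this width is not the limit of detection, and larger differences could be missed too. The smallest called differences in that fit were 0.56 and -0.56 log2 units. Of the 13 assays that differed by over 1 log2 unit there, 5 were called. The removed panel mean hides a shift shared by most assays, and the sources used here give no amplification efficiencies.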
